A study of Mus musculus with 8 samples.

Results

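The tRNA fragments described here are small RNA counts of mouse sperm assigned to tRNAs, except those for glycine, glutamate, valine, lysine, histidine and aspartate. These counts carry no read length or position and do not show that they come from fragments. They were chosen by name: every structural RNA row of class tRNA whose name does not start with one of those 6 amino acids was taken, and the rows of each name were summed. This gave 46 names from 815 rows, of 59 tRNA names with 1090 rows in the table, which fall into 16 amino acid groups. The whole table had 1078961 rows, or 45090 features after rows with one name were summed. For piRNA clusters only the largest row of each name was kept. The groups are alanine with 4 names, arginine with 6, asparagine with 1, cysteine with 1, glutamine with 3, isoleucine with 2, leucine with 7, elongator methionine with 2, initiator methionine with 1, phenylalanine with 1, proline with 3, selenocysteine with 1, serine with 6, threonine with 5, tryptophan with 1 and tyrosine with 2.

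The series compares sperm of mice given ethanol with sperm of control mice, in a setting where alcohol had been stopped before the sperm was taken. There were 4 control libraries and 4 ethanol libraries of small RNA from total RNA, extracted with Trizol and prepared with Qiaseq reagents. The labels used here give no strain, age, sex, dose or length of exposure, and do not say whether a library is 1 animal or a pool. The p-values below therefore measure the spread between these samples, which may be technical.

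Transfer RNAs bring amino acids to the ribosome, and nucleases can cut them, often near the anticodon loop, into stable fragments. Mature sperm is rich in them, the 5′ fragments of glycine and glutamate tRNAs being the best known, and part of them reaches sperm during transit through the epididymis. The tRNAs treated here carry other amino acids. Names in the table give the codon, with Y for C or T, so tRNA-Ser-AGY reads the serine codons AGC and AGT. The table also has names that end in _ or hold (m) or (e), marks that no source used here explains, and these are printed as they stand. Alanine names sum 399 rows, where the RefSeq mouse annotation lists 33 alanine tRNA genes, and phenylalanine sums 32 rows against 7 genes. Whether the further rows are tRNA genes was not tested.

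The libraries differed in ways that bear on every value below. Deposited totals ran from 4365887 to 4921827 counts in control and from 3481865 to 6975180 in ethanol. Totals over the features were lower, since only the largest row of each piRNA cluster name was kept. They ran from 4173236 to 4543220 in control and from 3353679 to 6314205 in ethanol, and the percentages of library counts below use them. Exons of mRNA took 5.47 to 6.08% of the counts in control libraries, 7.77 to 10.2% in ethanol replicates 1, 3 and 4, and 30.4% in ethanol replicate 2. Of 20 markers of epididymal epithelium 19 had a row, 9 were tested and all 9 rose, and their summed level was 469 to 821 CPM (counts after scaling for library size) in control, 1069 to 2995 in ethanol replicates 1, 3 and 4, and 12948 in ethanol replicate 2. Spint4 was the marker with no row, and none of the others was at 0 in all libraries. Of all tested mRNA exon features, 23.8% were called higher in ethanol and 0.153% lower. A marker low in control can enter the test through ethanol alone, so the count filter may favour markers that are high in ethanol. Of 13 tested spermatid and sperm transcripts none was called, and their sum was 657 to 835 CPM in control, 453 to 715 in ethanol replicates 1, 3 and 4, and 255 in replicate 2. Of 5 tested blood and immune markers 2 fell, with sums of 30.4 to 57.9 CPM in control and 9.43 to 33.7 in ethanol. Of 7 Leydig and Sertoli markers 1 was tested and not called, with sums of 35.3 to 310 CPM in control, 89.6 to 389 in ethanol replicates 1, 3 and 4, and 2104 in replicate 2. The part of these differences in the tRNA values was not tested. In bulk samples, fewer cells of a type and less RNA per cell cannot be told apart. The ethanol sample codes come in 2 styles, POM for replicates 1 and 2 and POEM for replicates 3 and 4, and the labels do not say what the styles mean.

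The 46 names together held 10.04% ± 1.37 of the feature total in control (SD, n = 4) and 8.32% ± 2.04 in ethanol (SD, n = 4). The control libraries held 10.8%, 11.5%, 9.504% and 8.37%, and the ethanol libraries 8.15%, 5.51%, 10.1% and 9.55%. The groups overlapped, and ethanol replicate 2 was the lowest of the 8 libraries. Of all tRNA counts, the 46 names made up 28.8% ± 5.09 in control and 22.3% ± 7.61 in ethanol, so with rows summed most tRNA counts in both groups came from the other 6 amino acids. These shares depend on summing rows. Of 310 rows with at least 100 counts in all, 184 carried nearly the same counts as another row of the same name, within 2% or 2 counts in every library, so that reads may be counted in several rows. When each name was represented by its largest row, the 46 names held 58.8% of all tRNA counts in control and 48.4% in ethanol.

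In control sperm the levels of the amino acid sums fell into steps. Serine and leucine tRNAs were highest, at 31389 ± 4555 and 31000 ± 2423 CPM (SD, n = 4), and their libraries overlapped each other. Selenocysteine and cysteine tRNAs followed at 13502 ± 1453 and 10967 ± 1221 CPM, again overlapping, and then initiator methionine at 7689 ± 713 CPM, alanine at 5179 ± 390 CPM, glutamine at 3410 ± 908 CPM and arginine at 1974 ± 263 CPM. Each of these last 4 was apart from its neighbours in the order, with no library in common range. Proline, tryptophan, elongator methionine, asparagine, threonine and isoleucine ran from 1418 down to 772 CPM, each overlapping the next. Phenylalanine at 422 ± 55.5 CPM and tyrosine at 129 ± 33.8 CPM were lowest and apart. These are counts per name, not divided by length, and they sum rows that may count a read several times, so the order holds for summed rows only. With the largest row of each name in place of the sum, leucine at 15661 ± 1911 CPM was followed by selenocysteine, which has a single row, at 13489 ± 1456 CPM and serine at 12042 ± 1705 CPM. Glutamine came next at 2527 ± 781 CPM, while cysteine, which sums 68 rows, stood at 1217 ± 144 CPM and initiator methionine, which sums 13, at 942 ± 83.9 CPM. With summed rows, the order in ethanol was close to the summed-row order in control. The ethanol libraries spread so much that only alanine and glutamine, at ranks 6 and 7 of the sums, were neighbours without overlap.

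**Figure D1:**
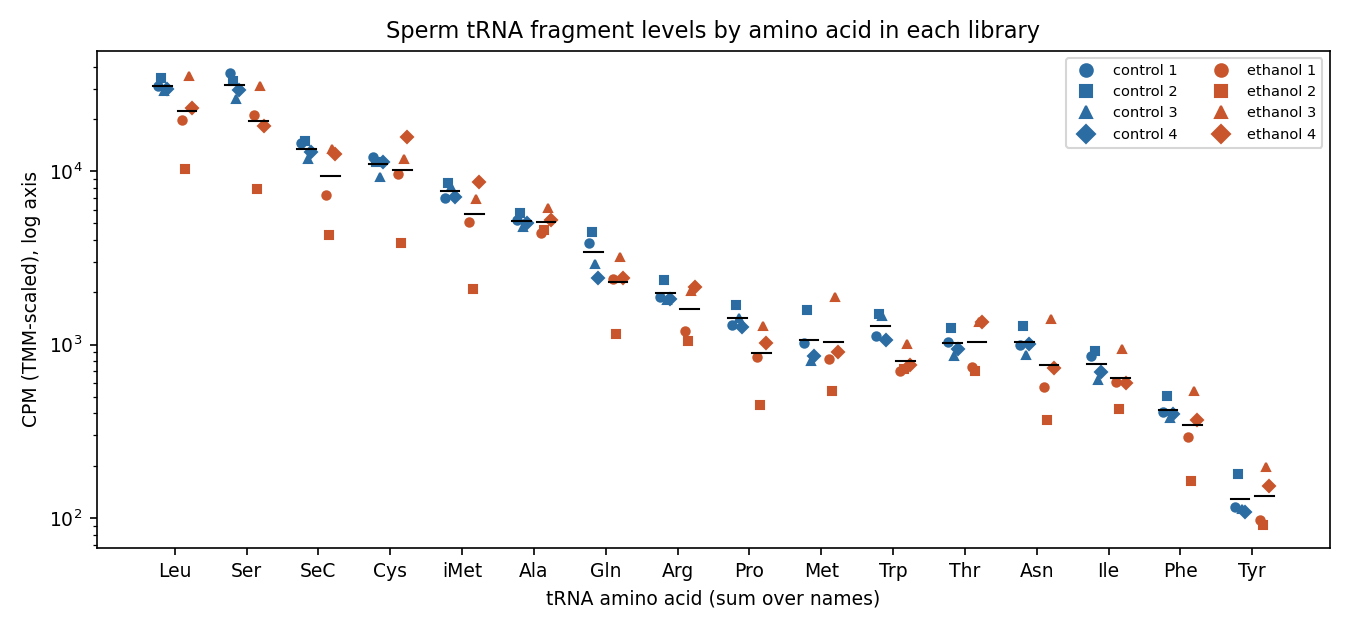
Level of each amino acid sum in CPM (TMM-scaled, log axis) in the 8 libraries, with blue points for control, orange for ethanol, the point shape for the replicate and a black line for the group mean. Serine and leucine are highest and tyrosine lowest in both groups on these summed rows, and ethanol replicate 2 (squares) lies lowest in most sums.

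No amino acid sum passed the test between ethanol and control. With edgeR's quasi-likelihood test adjusted over 13480 features, 0 of 16 sums were called and the smallest adjusted p was 0.255. An unadjusted p under 0.05 was found for 0 sums, where 33% of all features had one. After adjustment DESeq2 called 0 sums, where it called 23.3% of all features, and limma-voom called 0, where it called 8 of all 13480 features. At an unadjusted p under 0.05 DESeq2 had 1 sum and limma-voom 0. The shares of all features at that level with these tools are not given here. In the edgeR fit 13.7% of all features were called, 11.9% higher and 1.77% lower in ethanol. The estimates were negative for 14 of 16 sums, with a median log2 fold change of −0.37, and for 6789 of all 13480 features, with a median of −0.01. Standard errors ran from 0.41 to 0.49 on the log2 scale, and each library held between 184832 and 627376 counts of the 46 names.

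Leucine, serine and selenocysteine tRNAs are the cytosolic tRNAs with a long variable arm, an extra stem beside the anticodon arm. The serine sum was 36692, 33262, 26241 and 29363 CPM in control and 21176, 7910, 30817 and 18246 CPM in ethanol. Ethanol replicates 1, 2 and 4 lay below all control libraries and replicate 3 lay among them; the log2 fold change was −0.68 ± 0.48 (SE, adjusted p = 0.324, edgeR). The leucine sum was 30911, 34433, 28988 and 29668 CPM in control and 19716, 10295, 35538 and 23217 CPM in ethanol. Here ethanol replicate 3 was the highest of all 8 libraries and the other 3 ethanol libraries the lowest, for a log2 fold change of −0.48 ± 0.47 (adjusted p = 0.480, edgeR). The size of these estimates rested on single libraries: without ethanol replicate 2 the serine, leucine and selenocysteine estimates were −0.48, −0.30 and −0.34, and without ethanol replicate 3 they were −1.09, −0.91 and −0.85. Selenocysteine tRNA, which reads UGA in selenoprotein mRNAs and had 1 row, was at 14495, 14857, 11728 and 12877 CPM in control and 7319, 4317, 13489 and 12482 CPM in ethanol. Ethanol replicates 1 and 2 were below the control libraries and replicates 3 and 4 within them, with a log2 fold change of −0.52 ± 0.46 (adjusted p = 0.437, edgeR). These 3 groups, put together after their values were seen, held 67.6% ± 1.09 of the member counts in control and 61.7% ± 4.77 in ethanol; ethanol replicate 3 held 67.4%, within the control range of 66.7 to 69.0%, and the other 3 held 57.4 to 63.8%.

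Among the 6 serine names, all estimates were negative, from −0.83 for tRNA-Ser-AGY to −0.46 for tRNA-Ser-TCA_. tRNA-Ser-AGY was at 15898, 11972, 10213 and 12102 CPM in control and 7360, 2465, 10969 and 7484 CPM in ethanol, with a log2 fold change of −0.83 ± 0.49 (adjusted p = 0.243, edgeR). Only ethanol replicate 3 came within the control range. The 7 leucine names were also all negative, from −0.76 for tRNA-Leu-TTA(m) to −0.12 for tRNA-Leu-CTA. tRNA-Leu-CTY, for the codons CTC and CTT, was at 11346, 12602, 11279 and 11492 CPM in control and 6255, 3473, 13808 and 8953 CPM in ethanol. The ethanol libraries lay on both sides of the narrow control range, 1 above and 3 below. tRNA-Leu-TTA was at 9863, 11081, 7372 and 8272 CPM in control and 6852, 2472, 10136 and 5138 CPM in ethanol, with 1 of its several rows holding 94.0% of its counts. Its log2 fold change of −0.57 ± 0.48 and that of tRNA-Leu-CTY, −0.52 ± 0.47, had adjusted p-values of 0.411 and 0.447 by edgeR.

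Cysteine and initiator methionine tRNAs each had 1 name. tRNA-Cys-TGY was at 12082, 11292, 9209 and 11244 CPM in control and 9617, 3892, 11720 and 15668 CPM in ethanol, with a log2 fold change of −0.10 ± 0.47 (adjusted p = 0.905, edgeR). Ethanol replicate 4 was the highest of the 8 libraries and replicate 2 the lowest, and without replicate 2 the estimate turned to 0.12. tRNA-Met-i, the initiator that starts every cytosolic protein, was at 7042, 8479, 8072 and 7132 CPM in control and 5059, 2108, 6878 and 8706 CPM in ethanol. Its ethanol libraries again spanned the control range, with a log2 fold change of −0.43 ± 0.48 (adjusted p = 0.539, edgeR), which became −0.21 without ethanol replicate 2 and −0.76 without ethanol replicate 4. The elongator methionine names tRNA-Met_ and tRNA-Met, which serve internal codons, had estimates of −0.05 ± 0.48 and 0.06 ± 0.41.

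The alanine sum was the steadiest of the abundant groups, at 5211, 5705, 4789 and 5012 CPM in control and 4423, 4555, 6140 and 5211 CPM in ethanol. The 2 groups overlapped around the same mean, with a log2 fold change of −0.03 ± 0.41, a 95% interval of −0.90 to 0.85 and an adjusted p of 0.969 (edgeR). Its sign is not settled, since scaling by library totals gave 0.25. Within alanine the 4 names had estimates from −0.43 for tRNA-Ala-GCA to 0.52 for tRNA-Ala-GCY_.

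The tryptophan sum was the 1 of 16 with no overlap between the groups, where 7% of all features separated in that direction: 1116, 1503, 1466 and 1057 CPM in control against 703, 724, 1011 and 761 CPM in ethanol. All 4 ethanol libraries lay below all 4 control libraries, also replicate 3, which was high for most names. The log2 fold change of −0.68 ± 0.41 did not pass the test (adjusted p = 0.255, edgeR). The proline sum was 1304, 1691, 1421 and 1258 CPM in control and 852, 446, 1274 and 1014 CPM in ethanol, so that ethanol replicate 3 overlapped only control replicate 4. Its log2 fold change was −0.66 ± 0.45 (adjusted p = 0.308, edgeR). Tryptophan and proline are described here because their libraries separated or nearly so, which was seen in the values.

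The other amino acid groups overlapped widely. Glutamine ran from 2426 to 4458 CPM in control and from 1156 to 3186 CPM in ethanol, with an estimate of −0.58. Arginine ran from 1804 to 2365 CPM against 1051 to 2158 CPM (−0.30), and asparagine from 873 to 1279 CPM against 365 to 1397 CPM (−0.44). Ethanol replicate 2 set the lower end of the ethanol range in all 3 groups. Isoleucine ran from 622 to 916 CPM against 423 to 945 CPM (−0.26), and phenylalanine from 378 to 503 CPM against 164 to 542 CPM (−0.30). Threonine and tyrosine had the only positive estimates among the 16 sums, 0.03 and 0.05, with ranges of 864 to 1238 against 707 to 1352 CPM and 108 to 179 against 90.6 to 195 CPM.

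At the level of single names 45 of 46 had enough counts to be tested, and 0 were called by edgeR after adjustment over 13515 features, of which 13.6% were called (11.9% higher and 1.75% lower in ethanol). The name tRNA-Thr-ACY had an unadjusted p under 0.05, where 33% of all features did. After adjustment DESeq2 called 0 names, where it called 23.3% of all features, and limma-voom called 0, where it called 8 of 13515. At an unadjusted p under 0.05 DESeq2 had 9 names and limma-voom 0. The shares of all features at that level with these 2 tools are not given here. The untested name was tRNA-Tyr-TAT, with 0, 3, 0 and 2 counts in control and 2, 0, 9 and 2 in ethanol. Estimates were negative for 35 names and positive for 10, with a median of −0.43, beside 6804 negative of 13515 features and a median of −0.01. The 12 tested names of the other 6 amino acids had 5 negative estimates and a median of 0.22. The intervals are wide: 44 of 45 hold 0, 33 reach below −1 and 6 reach above 1, so the intervals of most names include a 2-fold fall.

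The 3 names with the widest estimates were tRNA-Thr-ACY, tRNA-Gln-CAA_ and tRNA-Ser-AGY. tRNA-Thr-ACY, for the threonine codons ACC and ACT, was low in both groups, at 49.7, 45.8, 33.9 and 57.3 CPM in control and 43.9, 117, 60.5 and 138 CPM in ethanol. Ethanol replicates 2 and 4 were above the others, and the log2 fold change of 0.95 ± 0.44 did not pass the adjustment (adjusted p = 0.147, edgeR). tRNA-Gln-CAA_ was at 2728, 3106, 1813 and 1523 CPM in control and 1630, 569, 1822 and 955 CPM in ethanol. Its log2 fold change of −0.88 ± 0.48 (adjusted p = 0.211, edgeR) was the lowest of the 45 names, with ethanol replicates 2 and 4 below every control library. Of the tested names, 2 had no overlap between groups, tRNA-Trp-TGG and tRNA-Pro-CCY, both with ethanol below control, where 6.91% of all features separated in that direction; none separated upward, where 14.4% of all features did. tRNA-Pro-CCY was at 377, 496, 412 and 378 CPM in control and 257, 118, 374 and 315 CPM in ethanol, with ethanol replicate 3 just under the lowest control. Both names are given because of that separation, seen in their values.

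**Figure D2:**
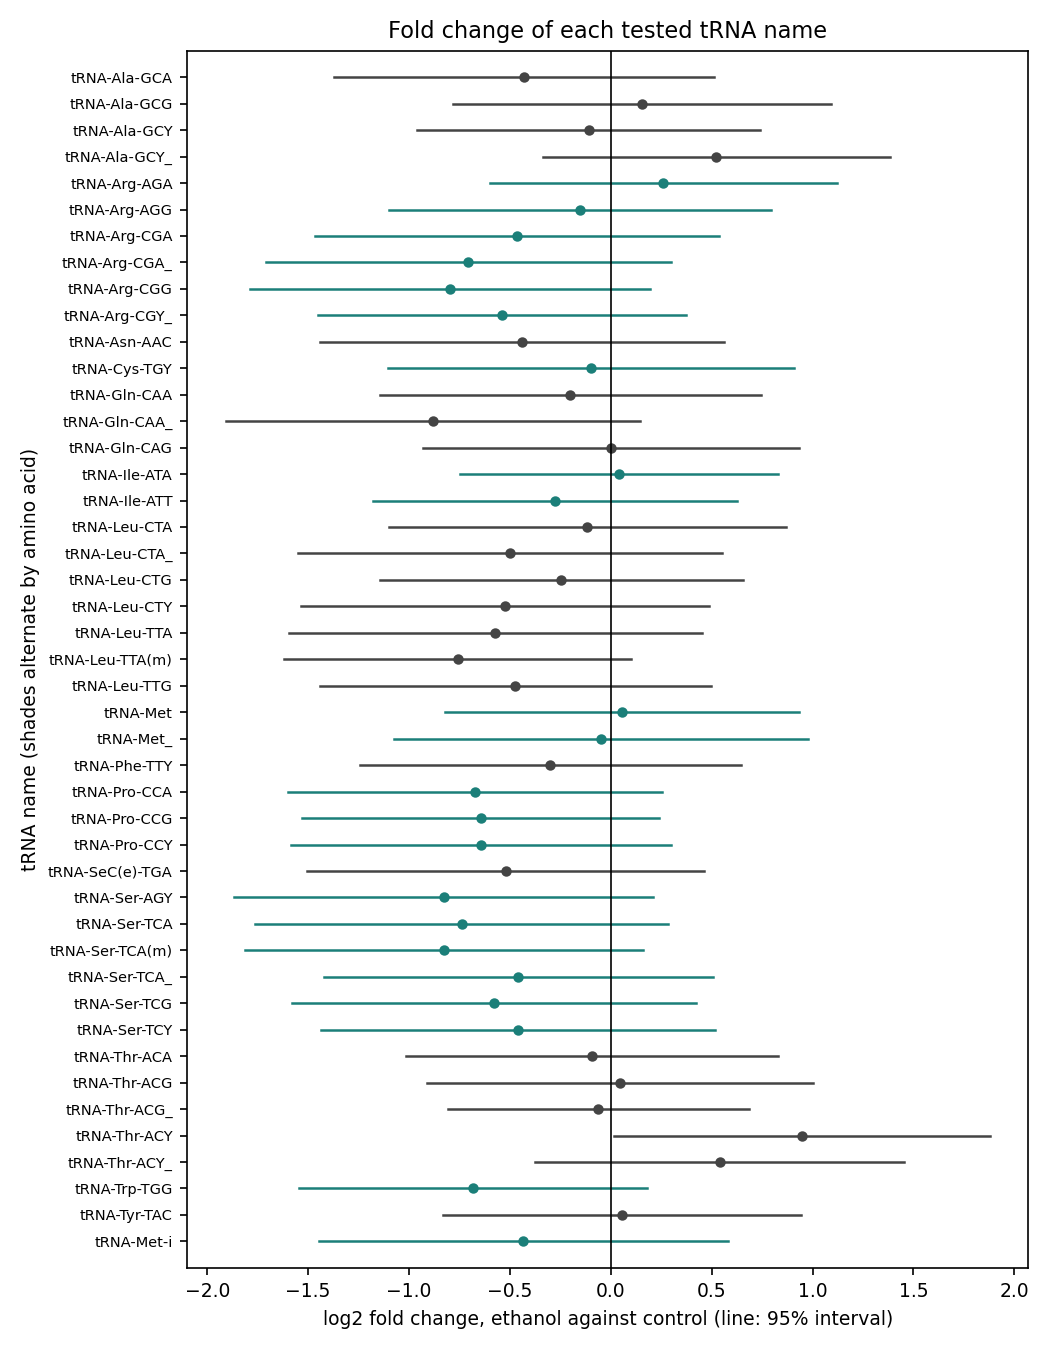
Log2 fold change of ethanol against control for the 45 tested tRNA names, with points for the estimate, lines for the 95% interval and shades that alternate by amino acid. Most points lie left of 0, and 44 of 45 lines cross it, with tRNA-Thr-ACY the exception.

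The ethanol libraries differed among themselves more than the control libraries did. Summed over the 46 names, the level was 118988, 123613, 100165 and 105839 CPM in control and 75554, 38895, 118329 and 93954 CPM in ethanol. Ethanol replicate 2 was the lowest of the 8 libraries for 34 of 46 names, and ethanol replicate 3 the highest of the 4 ethanol libraries for 29. Across the 45 names, log2 CPM correlated at 0.990 to 0.996 between control libraries, at 0.948 to 0.988 between ethanol libraries, and at 0.936 to 0.956 between control libraries and ethanol replicate 2; names share libraries and are not independent. The median estimate over names was −0.27 without ethanol replicate 2, −0.77 without ethanol replicate 3, −0.02 without both POM-coded libraries and −0.96 without both POEM-coded ones. The POEM-coded libraries alone thus gave a median near 0 and the POM-coded libraries alone gave the lower one.

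The median over names was negative on each scale tried, while sums near 0 changed sign. Scaling by library totals in place of TMM moved the median of all 13515 features from −0.01 to 0.25 and left 28 of 45 names negative, with a median of −0.25. In a fit of the 22 tRNA amino acid sums alone, which compares tRNAs with each other, 13.6% of sums were called: histidine and lysine higher, and proline lower. Proline tRNAs fell there (log2 fold change −0.45 ± 0.14, adjusted p = 0.0487, edgeR), and that call ended when any single one of the 8 libraries was left out, with adjusted p-values from 0.0698 to 0.357. In that fit alanine, threonine and tyrosine had estimates of 0.33 ± 0.22, 0.29 ± 0.18 and 0.32 ± 0.18, and serine, selenocysteine and leucine of −0.49 ± 0.22, −0.35 ± 0.15 and −0.29 ± 0.19.

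**Figure D3:**
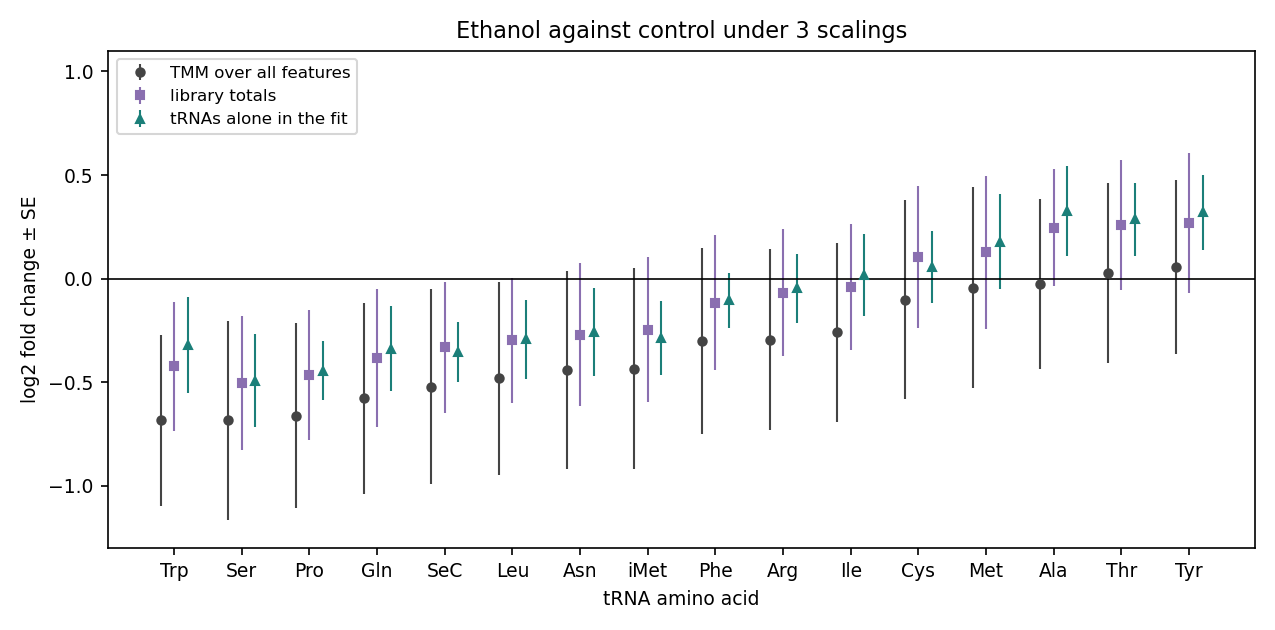
Log2 fold change of ethanol against control for the 16 amino acid sums (± SE) under TMM over all features (black circles), library totals (purple squares) and a fit of tRNAs alone (green triangles). Library totals and the fit of tRNAs alone lie above the TMM estimates for every sum, and the order of the sums is similar, with serine, proline and tryptophan low and alanine, threonine and tyrosine high.

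The share that each name takes of its own amino acid's counts does not depend on scaling between libraries, but it does depend on summing rows. Of 51 names of amino acids with several names, over all tRNAs, 3 had shares that did not overlap between groups (5.88%), and all 3 belong to the names described here, with ethanol above control. tRNA-Ala-GCY_ took 6.72, 7.86, 7.65 and 8.62% of alanine tRNA counts in control and 8.66, 15.3, 9.60 and 11.9% in ethanol. tRNA-Ser-TCY took 19.8, 21.1, 21.3 and 21.3% of serine tRNA counts in control and 24.4, 28.3, 24.4 and 22.2% in ethanol, and tRNA-Ser-TCA_ took 6.03 to 6.63% against 6.89 to 8.86%. These are descriptions without a test, and the alanine groups nearly touch. Reads may be counted in several rows here too. Of the 8 rows of tRNA-Ser-TCY 6 nearly repeat another, as do 2 of the 2 rows of tRNA-Ser-TCA_, while tRNA-Ser-TCA has 1 row. In tRNA-Ala-GCY_, copies 574 and 575, with 21.6% of its counts each, carry nearly the same counts. Other names kept nearly the same share in every library: tRNA-Pro-CCA took between 51.6 and 53.5% of proline tRNA counts, and tRNA-Met_ between 91.1 and 94.96% of elongator methionine counts. tRNA-Thr-ACY took 4.84, 3.70, 3.94 and 6.10% of threonine tRNA counts in control and 5.89, 16.5, 4.51 and 10.2% in ethanol, where ethanol replicates 2 and 4 were again the high ones.

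**Figure D4:**
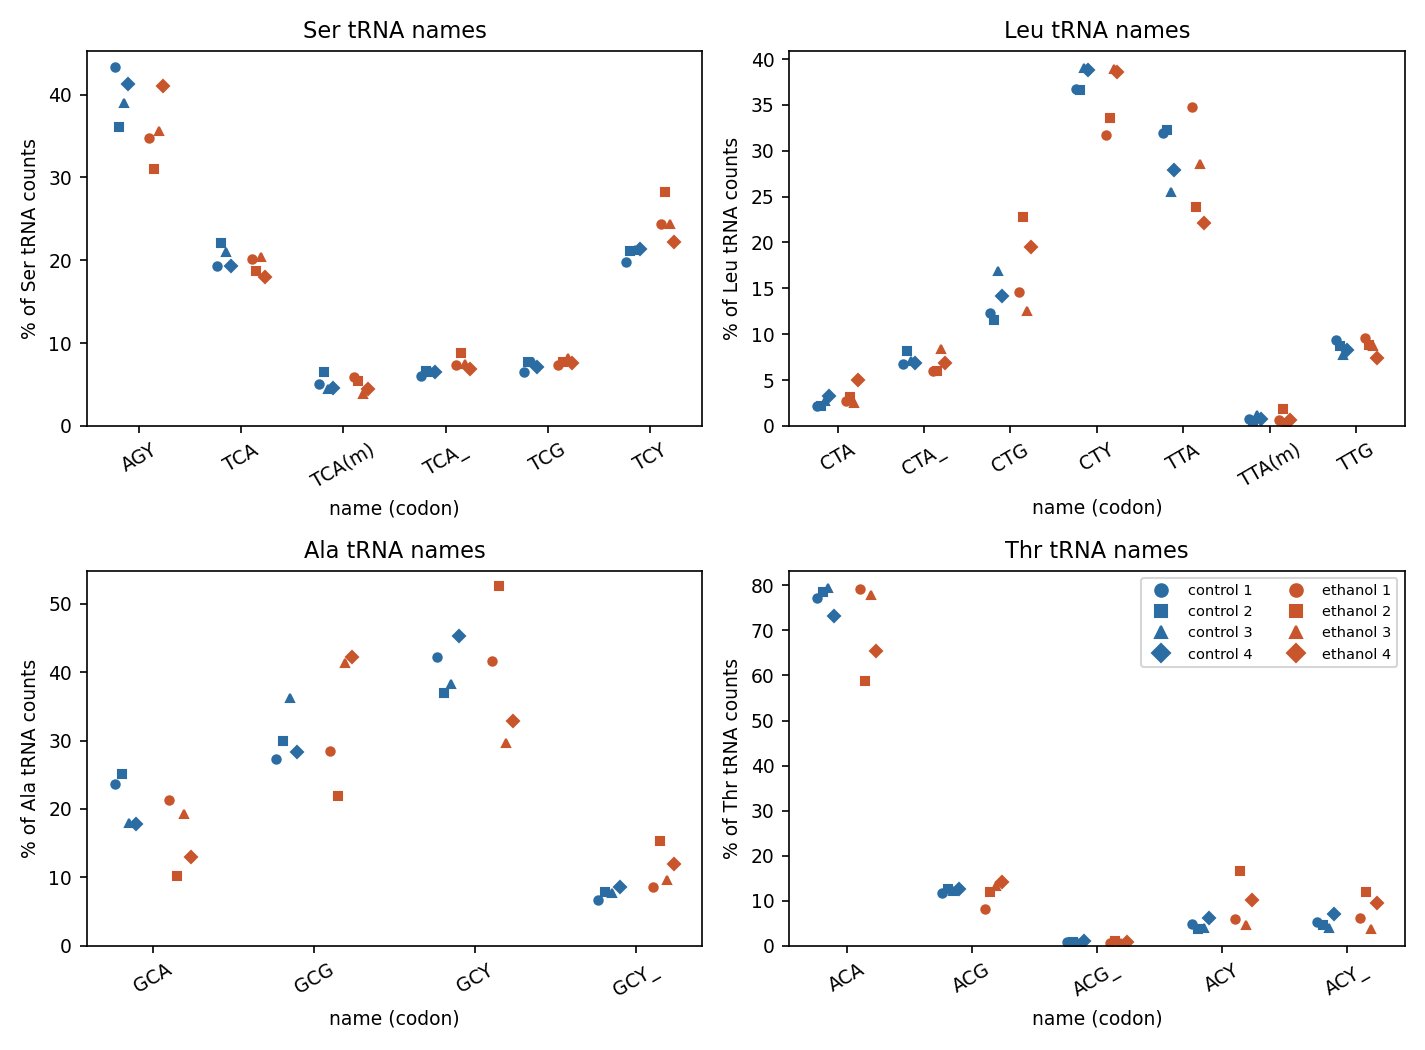
Share of each name in the counts of its amino acid, in percent, for serine, leucine, alanine and threonine tRNAs in the 8 libraries, with blue for control, orange for ethanol and the point shape for the replicate. The ethanol points of tRNA-Ser-TCY, tRNA-Ser-TCA_ and tRNA-Ala-GCY_ all lie above the control points, and ethanol replicate 2 (squares) is the farthest from the control points in several names.

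Each name sums rows that the table lists as numbered copies, and a fit with every tRNA row as its own feature was added after the data had been seen. Of 815 member rows 313 were tested and 3 were called, 2 higher and 1 lower in ethanol, where 12.9% of all features were called (11.4% higher and 1.5% lower). An unadjusted p under 0.05 was found for 15 rows, where 32.3% of all features had one. The 2 higher rows were copies 20 and 25 of tRNA-Met_, which carry almost the same counts and so are 1 signal. Copy 25 had 31, 50, 36 and 28 counts in control and 234, 83, 238 and 346 in ethanol, with a log2 fold change of 2.06 ± 0.41 (adjusted p = 0.0296, edgeR). All 4 ethanol libraries were above all 4 control libraries, ethanol replicate 2 the least; 14.5% of all features separated in that direction. Without control replicate 1, 2, 3 or 4 the estimate was 1.88 to 2.16 and the adjusted p 0.0631 to 0.0960, in fits that called only 4 to 12 of all features against 1802 with every library. Each of the 2 rows held 2.80 to 2.81% of the counts of tRNA-Met_, and the 2 leading rows, copies 15 and 40, with about 42% each, had estimates of −0.13 ± 0.48 and −0.14 ± 0.48.

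The lower row was copy 1340 of tRNA-Ala-GCY_, with 35, 163, 39 and 22 counts in control and 1, 3, 0 and 0 in ethanol. All ethanol libraries were below all control libraries, as for 6.41% of all features, and control replicate 2 was far above the other 3. The fitted log2 fold change of −6.33 ± 0.87 (adjusted p = 0.0139, edgeR) depends on the prior count and is no bound. The row passed the count filter through control alone, the group where it is high, so its call and separation are description only. This row held 1.40% of the counts of its name, which sums 272 rows. The leading row of the name, copy 577 with 37.0% of its counts, had an estimate of 0.27 ± 0.42. Copies 574, 575 and 576, with 21.6, 21.6 and 12.9% of the counts, had estimates of 0.94 ± 0.44, 0.94 ± 0.44 and 0.91 ± 0.43 (adjusted p = 0.153, 0.153 and 0.160, edgeR), and copies 574 and 575 carry nearly the same counts.

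**Figure D5:**
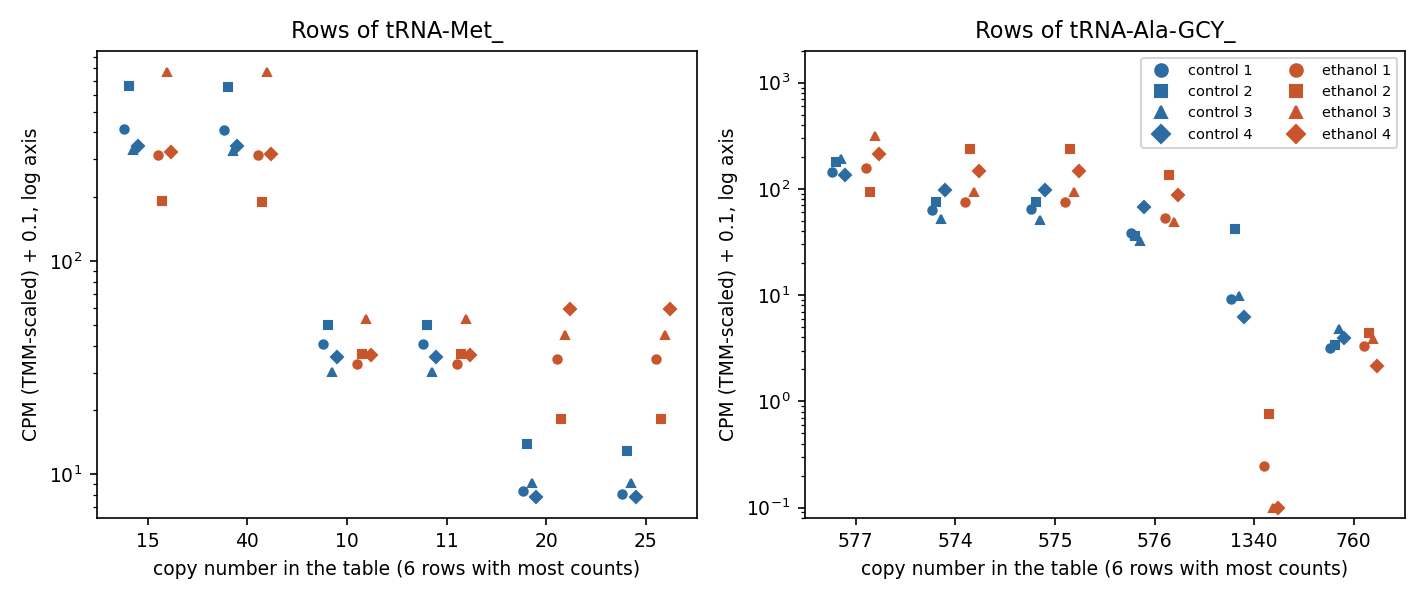
Level in CPM plus 0.1 (TMM-scaled, log axis) in the 8 libraries for the 6 rows with the most counts of tRNA-Met_ and of tRNA-Ala-GCY_, with blue for control, orange for ethanol and the point shape for the replicate. Copies 20 and 25 of tRNA-Met_ lie higher in all ethanol libraries, copy 1340 of tRNA-Ala-GCY_ lower, and the other rows shown overlap between groups.

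Messenger RNA of the proteins that charge, process, modify and cut tRNAs was read from the same fit, over 7 lists. Of 142 list genes with a row 53 were tested, 18 rose and 1 fell, and the median estimate was 1.36 on the log2 scale, beside 1560 higher (23.8%) and 10 lower (0.153%) of 6545 tested mRNA exon features with a median of 0.88. Epididymal epithelium markers, given above, were also higher in ethanol, and their part in these calls was not tested. Several genes named below are near the floor in control: Kars, Ssb and Trmt112 had 31, 33 and 28 counts over the 4 control libraries. Sars, Rtcb, Nsun2, Rnh1, Polr3b, Polr1d and Eif2s1 had 44, 47, 39, 43, 37, 43 and 33. They passed the count filter through ethanol, where they are high, so the numbers of genes that rose are partly set by the filter. The numbers of called genes differed between settings, as did the calls over all features, 13.6% in the fit used here. Leaving out control replicate 1, 2, 3 or 4 left 0 of these genes and 3 to 10 of all features called. Without ethanol replicate 2 it was 11 genes and 9.55% of all features, with limma-voom 0 genes and 8 features, and with DESeq2 29 genes and 23.3% of all features.

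Of 15 tested cytosolic aminoacyl-tRNA synthetases, the enzymes that load tRNAs, 7 rose, where 23.8% of tested mRNA exon features did. Sars, the synthetase that charges both serine and selenocysteine tRNA, was at 2.36, 3.36, 1.997 and 3.89 CPM in control and 12.9, 47.1, 5.28 and 10.2 CPM in ethanol, with a log2 fold change of 2.69 ± 0.60 (adjusted p = 0.0287, edgeR). Wars, which charges tryptophan tRNA, was at 29.6, 50.4, 35.4 and 61.8 CPM in control and 130, 319, 86.6 and 204 CPM in ethanol (2.06 ± 0.49, adjusted p = 0.0287, edgeR). In both genes every ethanol library was above every control library, as for 14.4% of all features, and ethanol replicate 2 was by far the highest. Sars had 44 counts over the control libraries and passed the count filter through ethanol, so its call and separation are description only. Kars for lysine and Vars for valine rose with log2 fold changes of 1.97 ± 0.52 and 1.61 ± 0.46. Of 3 tested mitochondrial synthetases 0 were called by edgeR, with Aars2 at −0.30 ± 0.35 and Iars2 at 1.04 ± 0.48. In this list 1 gene had an unadjusted p under 0.05, where 3266 of 6545 tested mRNA exon features had one.

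Beside the counts of this paragraph, 23.8% of tested mRNA exon features rose and 0.153% fell. Of 7 tested genes of tRNA end processing 2 rose: Rtcb, the ligase that joins tRNA exons after splicing (2.32 ± 0.55), and Ssb, the La protein that binds the 3′ end of new RNA polymerase III transcripts (2.27 ± 0.61). Among 9 tested modification genes Nsun2, a cytosine methyltransferase of tRNA, and Trmt112, a partner of tRNA methyltransferases, rose by 1.68 ± 0.47 and 2.15 ± 0.57. Alkbh1, a tRNA demethylase, fell: it was at 17.8, 18.9, 3.25 and 3.06 CPM in control and 0.73, 2.10, 2.45 and 1.04 CPM in ethanol, with a log2 fold change of −2.77 ± 0.63 (adjusted p = 0.0287, edgeR). The control libraries fell into a high pair and a low pair, and the low pair was only just above ethanol. Alkbh1 had 34 counts over the 4 ethanol libraries and passed the count filter through control. Of 4 tested nucleases and inhibitors 3 rose: Rnaset2a (2.39 ± 0.55), Rnaset2b (2.25 ± 0.51), which are near-identical paralogs whose reads the counting could share, and Rnh1, the inhibitor of the RNase A family (1.74 ± 0.49). Rnaset2a and Rnaset2b had 30 and 32 counts over the 4 control libraries and passed the count filter through ethanol. Dicer1 had an estimate of 0.37 ± 0.36. Of 9 RNA polymerase III genes Polr3b and Polr1d rose (1.75 ± 0.51 and 1.69 ± 0.45), and of 6 translation factors Eef1a1, which has pseudogene copies, and Eif2s1 rose (2.24 ± 0.57 and 1.57 ± 0.46).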

How the data were processed

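Per the file headers, the deposited values are counts of each annotated copy in each library, and they are whole numbers; no source used here gives the aligner, counting rule, build or use of molecular identifiers. Columns were matched to samples by the sample codes in the labels. Rows with one name and type were summed, except that piRNA clusters kept only the largest row of each name, giving 45090 features in 16 classes. Counts were tested in edgeR 4.0.16 (R 4.3.3) with TMM scaling, filterByExpr with a minimum count of 10, a robust quasi-likelihood fit on group alone and Benjamini-Hochberg adjustment over all tested features at 0.05. The SE is the absolute log2 fold change divided by the square root of F. CPM used TMM factors. The fit was also run with limma 3.58.1 and DESeq2 1.42.0, and was tested on simulated data. Per-library values were fixed for the 6 amino acid sums and 6 names with the highest mean CPM and the 3 uncalled names with the largest change; in each mRNA list up to 4 called genes were named, or otherwise the 2 highest. The members and lists were chosen with earlier results of these data known. Shares and plots were made in Python 3.11.15. Mature tRNA sequences were not used here.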

Additional observations from a re-analysis of the deposited data

Results flagged for a closer look

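In 9 of 118 groups of 4 libraries 1 library stood far from the other 3, by Dixon's gap test; chance alone flags about 1 in 20 groups. In 7 of the 9 that library was control replicate 2, which was the highest: at 2365 CPM for the arginine sum, 179 CPM for the tyrosine sum, 165 CPM for tRNA-Arg-CGY_, 2791 CPM for tRNA-Leu-CTA_, 12602 CPM for tRNA-Leu-CTY, 178 CPM for tRNA-Tyr-TAC and 41.5 CPM for copy 1340 of tRNA-Ala-GCY_. The tyrosine sum is nearly all tRNA-Tyr-TAC, so these 2 are 1 observation. Ethanol replicate 3 was highest for tRNA-Met at 101.3 CPM, and control replicate 3 lowest for tRNA-Thr-ACG_ at 5.49 CPM.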

How the results depend on the processing

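The count of called names was 0 in all settings but 2: tRNA-Arg-CGA_ was called lower without ethanol replicate 3 and without both POEM-coded libraries (1 name each), so leaving out 1 library gave 0 to 1. No amino acid sum was called except proline with tRNAs alone in the fit (1 sum); that proline estimate ran from −0.49 to −0.32 and lost its call without each library. Of the rows, 7 were called with no filter, 0 with a minimum count of 50, 5 with DESeq2's test, 1 with limma-voom, 11 without both POEM-coded libraries and 1 to 10 without 1 library: 1 without each control library and 10 without ethanol replicate 3. Of the mRNA list genes, 19 in the fit above, 12 were called with DESeq2 size factors, 41 with no filter, 2 with a minimum count of 50, 29 with DESeq2's test, 0 with limma-voom, 4 without both POM-coded and 35 without both POEM-coded libraries, and 0 to 33 without 1 library (11 without ethanol replicate 2, 33 without ethanol replicate 3). The calls over all features also differed between settings. In the fit with the list genes 13.6% of all features were called, and 8.88% with DESeq2 size factors. The share was 7.65% with no filter, where more list genes were called, and 7.98% with a minimum count of 50. It was 23.3% with DESeq2's test, 0.0592% with limma-voom, 5.48% without the POM-coded and 20.5% without the POEM-coded libraries. Without ethanol replicate 3 it was 24.1%. In the fit of rows 12.9% of all features were called. There the share was 7.65% with no filter, 0.0295% with a minimum count of 50 and 22.8% with DESeq2's test. It was 0.0646% with limma-voom, 20.7% without the POEM-coded libraries and 23.5% without ethanol replicate 3. The difference in the share of counts was −1.72 points of the feature total and −6.56 points of all tRNA counts. It was −0.85 points of the feature total with the largest row of each name and −2.30 to −0.78 without 1 library (−0.78 without ethanol replicate 2). The alanine sum turned positive with library totals (0.25), no filter (0.022), a minimum count of 50 (0.21), the largest row of each name (0.12), tRNAs alone (0.33), without ethanol replicate 1 (0.041, in a range of −0.24 to 0.041 over single libraries left out) and without both POM-coded libraries (0.10). tRNA-Cys-TGY did so with library totals (0.10), a minimum count of 50 (0.10), tRNAs alone (0.15), without ethanol replicate 2 (0.12, in a range of −0.42 to 0.12) and without both POM-coded libraries (0.32), where tRNA-Met-i was 0.0093. The cause was not tested. Deviations from the group means correlated at 0.34, 0.21, −0.13 and −0.02 between same-numbered libraries. The labels do not say whether the numbers pair samples, and these correlations cannot settle it. A replicate block called 0 names, 0 amino acid sums and 4 rows, in fits that called 24.4, 24.5 and 24.2% of all features. It called 30 mRNA list genes in the fit of names. The minimum-count setting tests fewer features.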
